A study of Mus musculus with 12 samples.

Results

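Cell cycle and DNA replication genes were followed as a read-out of proliferation in mammary tissue of early pregnancy. The set was given as a list of 39 gene symbols, and where several probe sets named a gene, the brightest on average over the 12 arrays stood for it. All 39 were matched, of 18193 genes named by a probe set, and all 39 passed the filter on low signal (a mean of log2 6.04, the 30th percentile), as did 14198 genes in all. They comprise 14 S phase genes, 18 genes of mitosis and 7 regulators of entry into the cycle.

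Tissue was collected 6 days after a mating plug from 3 mice of each of 4 genotypes, bred from C57BL/6, FVB and 129 strains in a mix. Mice labelled Stat5a-/- lack Stat5a and carry 2 Stat5b alleles. Those labelled Stat5ab+/null carry 1 intact allele of each gene. Those labelled Stat5abnull/Stat5b- keep 1 Stat5a allele and no intact Stat5b (here single-Stat5a), and those labelled Stat5abnull/Stat5a- keep 1 Stat5b allele and no intact Stat5a (here single-Stat5b). No genotype with 4 intact alleles was analysed here, so every value comes from a mutant. The labels do not say in which cells the alleles are lost. Sample descriptions also speak of sorted cells and of PolyIC injection for Mx1-Cre, whereas the design text gives mammary tissue. Krt8 (luminal epithelium) lay between 12.77 and 13.68 on the log2 scale and the adipocyte list mean between 12.30 and 13.57, so epithelium and fat were both present in every array. Values are signals of bulk tissue, in which fewer cells of a type and less RNA per cell cannot be told apart. Separate mice are given as the replicates, and their number limits the precision.

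STAT5A and STAT5B are transcription factors that carry the signal of prolactin and other cytokines, and in pregnancy they are needed for alveolar epithelium to expand and differentiate. Cells enter the cycle when D-type and E-type cyclins activate their kinases and release E2F factors, which turn on genes for DNA replication. Genes of mitosis are switched on later, largely through MuvB complexes that bind CHR elements in their promoters, and through NF-Y at CCAAT boxes. CDKN1A (p21) and CDKN1B (p27) hold the kinases back.

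The promoters show how the S phase and mitosis genes differ in sequence. RefSeq windows (GRCm38.p6, 250 bases before to 50 after a start) were found for 12 of 14 S phase genes, 15 of 18 mitosis genes and 4 of 7 regulators. Both strands were searched for 4 E2F words (TTTCCCGC, TTTGGCGC, TTTCGCGC and TTTGCCGC), for the CHR word TTTGAA and for CCAAT. An E2F word stood in 42.9% of the 14 S phase windows and 6.67% of the 15 mitosis windows, against 2.26% of all 32851 windows. The CHR word stood in 7.14% of the S phase windows and 80.0% of the mitosis windows, against 17.9% of all windows. CCAAT was found in 78.6% and 86.7%, against 37.4%. E2F and CCAAT matches overlapped in 1 of the 35 member windows and CHR and CCAAT matches in 1. The 6 windows of the regulators held no E2F word and no CHR word in these letters. A match is a description of the letters, not a binding site. The windows below run from 150 bases before the start to the base before it. They read 5′ to 3′ on the gene's strand, with matches in capitals. Being shorter than the windows searched, such stretches leave out the E2F or CHR match of many genes counted above. The genes below were chosen for a match inside the stretch. They are 3 S phase genes with an E2F word and 3 mitosis genes with a CHR word: Mcm5 (chr8:75109359-75109508, plus strand), Mcm6 (chr1:128359706-128359855, minus strand) and Cdc6 (chr11:98908001-98908150, plus strand), then Cdk1 (chr10:69352913-69353062, minus strand), Top2a (chr11:99024190-99024339, minus strand) and Kif11 (chr19:37376232-37376381, plus strand).
Mcm5: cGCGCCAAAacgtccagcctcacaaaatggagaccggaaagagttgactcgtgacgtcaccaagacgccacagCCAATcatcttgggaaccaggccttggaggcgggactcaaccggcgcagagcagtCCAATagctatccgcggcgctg
Mcm6: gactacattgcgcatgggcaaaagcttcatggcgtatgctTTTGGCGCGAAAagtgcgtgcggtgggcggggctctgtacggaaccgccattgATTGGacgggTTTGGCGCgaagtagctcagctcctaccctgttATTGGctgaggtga
Cdc6: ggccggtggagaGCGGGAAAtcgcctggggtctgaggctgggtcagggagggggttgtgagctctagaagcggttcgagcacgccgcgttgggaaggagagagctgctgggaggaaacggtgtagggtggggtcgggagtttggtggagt
Cdk1: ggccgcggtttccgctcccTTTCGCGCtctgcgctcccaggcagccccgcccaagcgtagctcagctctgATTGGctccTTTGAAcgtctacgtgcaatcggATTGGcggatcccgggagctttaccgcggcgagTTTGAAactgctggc
Top2a: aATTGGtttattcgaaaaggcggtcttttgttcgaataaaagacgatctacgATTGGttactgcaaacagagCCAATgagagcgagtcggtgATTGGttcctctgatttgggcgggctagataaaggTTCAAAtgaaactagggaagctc
Kif11: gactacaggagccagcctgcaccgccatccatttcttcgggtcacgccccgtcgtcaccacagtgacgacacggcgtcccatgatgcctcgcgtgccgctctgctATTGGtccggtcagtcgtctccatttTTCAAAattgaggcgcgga
Mcm5 and Mcm6, subunits of the replicative helicase, and Cdc6, which loads that helicase, carry E2F words. Cdk1, the mitotic kinase, carries an E2F word and also CHR words. Top2a, which untangles DNA, and Kif11, a spindle motor, carry a CHR word beside CCAAT and no E2F word in this window.

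The arrays fall into 2 sets. Between the 6 arrays of Stat5a-/- and Stat5ab+/null and the 6 arrays of single-Stat5a and single-Stat5b, the correlation over genes was 0.818 to 0.883, against 0.980 to 0.994 within the first set and 0.949 to 0.988 within the second. The actin control signal near the 3′ end exceeded that near the 5′ end by 0.13 to 0.27 in the first set and by 2.16 to 3.78 in the second. Genotypes of the first set have 2 intact alleles and those of the second 1, so array set and allele number cannot be told apart, and differences were tested only within a set. In the first set the means of the targeted genes went against the labels in all 4 probe sets. Stat5a averaged 10.30 in the arrays labelled Stat5a-/- and 9.91 in Stat5ab+/null, and 8.94 and 8.37 in its second probe set. Stat5b averaged 8.27 and 8.52, and 9.59 and 9.90. Mice of the 2 genotypes overlapped in the second Stat5a probe set and in the first of Stat5b. In the second set the means of all 4 followed the labels. Stat5a averaged 12.21 in single-Stat5a and 10.98 in single-Stat5b, and 5.29 and 5.05 in its second probe set. Stat5b averaged 6.15 and 6.79, and 9.43 and 9.63. There the mice overlapped in the second probe set of each gene, and that of Stat5a lay below log2 6.04 in every array of the set. The labels do not say which part of Stat5a is deleted relative to these probes. Sample titles of the first set also carry letters, ABB where the genotype is given as Stat5a-/- and AAB where it is Stat5ab+/null. Read as allele counts, these letters would contradict the genotypes given and the allele numbers derived from them. Genotype names are therefore those of the labels, and every direction given for the first comparison rests on them.

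None of the 39 genes passed the test in either comparison. In the arrays labelled Stat5a-/- against Stat5ab+/null, limma called 0 of 39 at an adjusted p under 0.05, and 0 of 39 had an unadjusted p under 0.05. Over all genes 0.00704% were called and 3.01% had an unadjusted p under 0.05. In single-Stat5b against single-Stat5a, 0 of 39 were called and 2 had an unadjusted p under 0.05 (Ccnd2 and Cdkn1b), against 2.18% and 11.6% of all genes. The difference between the 2 comparisons was called for 0 of 39, with 1 at an unadjusted p under 0.05 (Ccnd2), against 0.775% and 7.23% of all genes. The precision was limited: the median standard error was 0.31 on the log2 scale, and the 95% interval lay within 1 log2 unit of 0 for 31 of 39 genes in the first comparison and 29 of 39 in the second. For those genes, changes above 2-fold lay outside the interval. The half-width of the interval ran from 0.43 to 1.01, so how small a change could be seen depended on the gene.

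**Figure D1:**
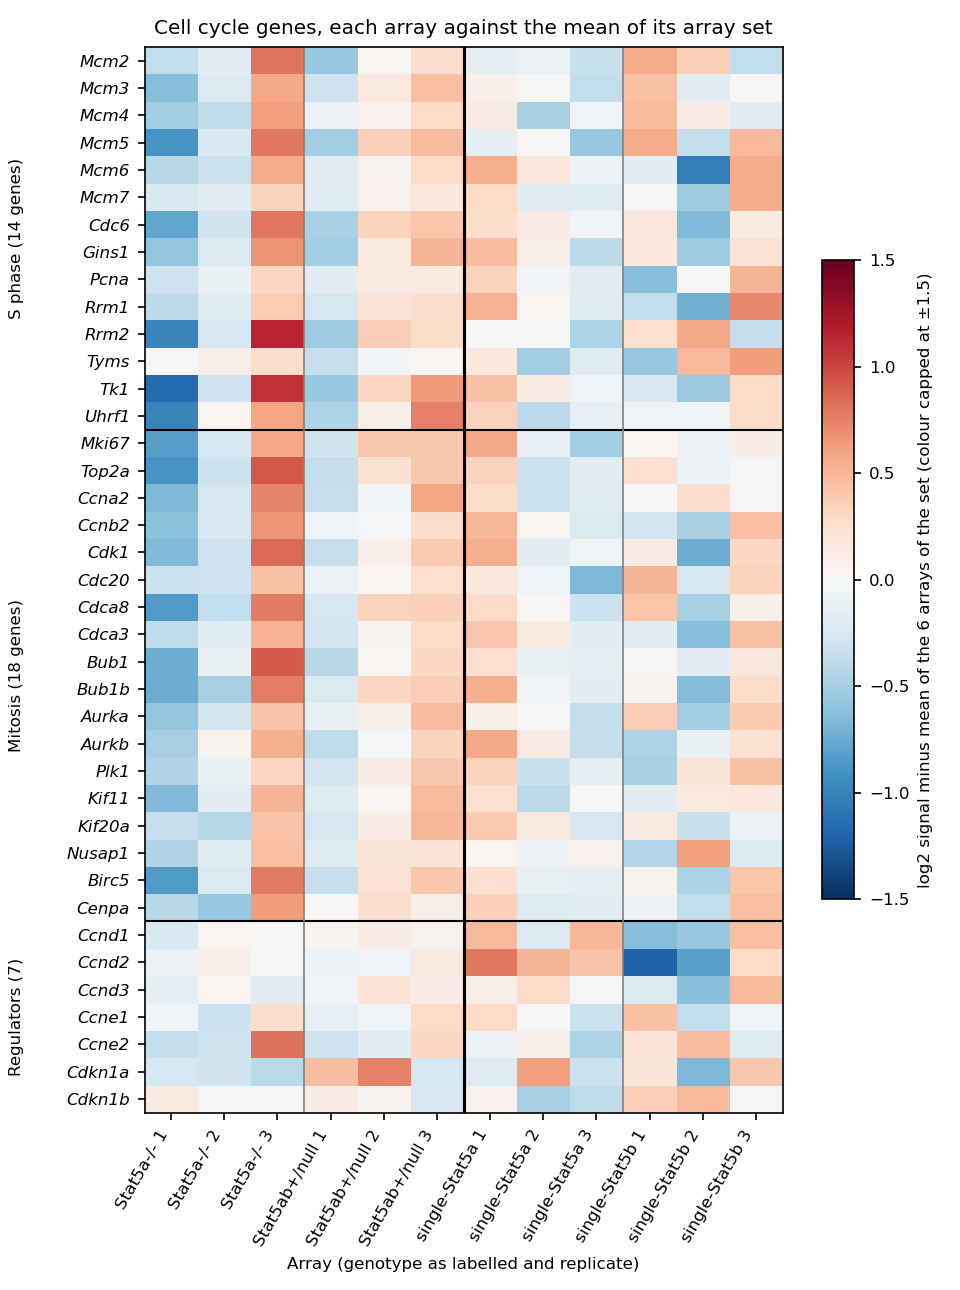
Signal of the 39 genes (rows) in each of the 12 arrays (columns), as the log2 difference from the mean of the 6 arrays of the same set; red is above and blue below that mean. In the first 6 columns the S phase and mitosis rows change colour together from mouse to mouse, while most regulator rows do not.

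S phase genes encode the replicative helicase, its loaders, the sliding clamp and the enzymes that make deoxynucleotides. Mcm2, a helicase subunit, read 8.76, 8.98 and 9.94 in Stat5a-/-, 8.57, 9.16 and 9.40 in Stat5ab+/null, 9.63, 9.68 and 9.43 in single-Stat5a, and 10.32, 10.12 and 9.39 in single-Stat5b. The groups overlapped in both sets. Mcm2 differed by 0.18 (95% interval -0.52 to 0.89) between Stat5a-/- and Stat5ab+/null and by 0.37 (-0.34 to 1.07) between single-Stat5b and single-Stat5a. Its other probe set gave -0.17 and -0.08, opposite in sign in both comparisons.

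Mcm5, another helicase subunit, read 9.77, 10.42 and 11.45 in Stat5a-/-, 10.15, 11.01 and 11.13 in Stat5ab+/null, 10.30, 10.45 and 9.86 in single-Stat5a, and 10.99, 10.08 and 10.91 in single-Stat5b. The mice of the genotype Stat5a-/- lay further apart than the means of any groups compared. Mcm5 differed by -0.22 (SE 0.40) and 0.46 (SE 0.40) in the 2 comparisons. Mcm6 read 10.95, 10.56 and 10.33 in single-Stat5a and 10.25, 9.37 and 10.96 in single-Stat5b, a difference of -0.42 (SE 0.36) with overlapping groups, opposite in sign to that of Mcm5.

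Pcna, the sliding clamp of DNA polymerase, read 12.74, 12.96 and 13.37 in Stat5a-/-, 12.89, 13.19 and 13.20 in Stat5ab+/null, 12.67, 12.30 and 12.16 in single-Stat5a, and 11.70, 12.33 and 12.85 in single-Stat5b. Its differences were -0.07 (SE 0.27) and -0.09 (SE 0.27). Groups overlapped in both sets.

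Among enzymes of nucleotide supply, Tk1 and Rrm2 spread widely in Stat5a-/-. The chosen probe set of Tyms, at 7.01, 7.10 and 7.27 there, did not. Of 4 Tyms probe sets it alone passed the filter, and its mean of 6.81 over the 12 arrays was close to the filter level of 6.04. Tk1, thymidine kinase, read 7.99, 8.85 and 10.24 in Stat5a-/-, 8.59, 9.47 and 9.79 in Stat5ab+/null, 9.29, 8.97 and 8.80 in single-Stat5a, and 8.61, 8.31 and 9.13 in single-Stat5b. The lowest and the highest of the 12 values of Tk1 were both from mice of the genotype Stat5a-/-. Its differences were -0.26 (SE 0.47) and -0.33 (SE 0.47). Rrm2, the regulated subunit of ribonucleotide reductase, read 7.90, 8.63 and 10.03 in Stat5a-/- and 8.35, 9.25 and 9.16 in Stat5ab+/null, with a difference of -0.07 (SE 0.44). Tyms, thymidylate synthase, differed by 0.24 (SE 0.29) and 0.36 (SE 0.29), and Uhrf1, which maintains DNA methylation at replication, by -0.25 (SE 0.38) and 0.11 (SE 0.38).

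The median difference of the 14 S phase genes was -0.13 in the first comparison and 0.07 in the second, beside -0.08 and -0.03 over all genes tested. Single arrays turned both: the first was 0.16 without Stat5a-/- 1 and -0.49 without Stat5a-/- 3, and the second -0.12 without single-Stat5b 3 and 0.22 without single-Stat5a 1. Single genes ran from -0.26 to 0.24 and from -0.42 to 0.46. Of these genes, 2 of 14 and 8 of 14 lay above 0, against 33.6% and 45.9% of all genes. With an array left out, these counts ran from 1 to 14 and from 6 to 11.

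None of the 18 genes of mitosis passed the test. Mki67, which encodes the proliferation antigen Ki-67, read 9.11, 9.67 and 10.51 in Stat5a-/-, 9.64, 10.34 and 10.33 in Stat5ab+/null, 10.54, 9.85 and 9.46 in single-Stat5a, and 10.00, 9.88 and 10.08 in single-Stat5b. Groups overlapped in both sets, and the differences were -0.34 (95% interval -1.09 to 0.41) and 0.04 (-0.71 to 0.79).

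Top2a read 8.68, 9.24 and 10.49 in Stat5a-/-, 9.20, 9.80 and 9.96 in Stat5ab+/null, 10.19, 9.52 and 9.68 in single-Stat5a, and 10.08, 9.77 and 9.83 in single-Stat5b. Its order among mice of the first set was that of Tk1. The differences were -0.18 (SE 0.38) and 0.10 (SE 0.38). Cdk1 read 8.96, 9.31 and 10.47 in Stat5a-/-, 9.27, 9.70 and 10.02 in Stat5ab+/null, 9.96, 9.25 and 9.35 in single-Stat5a, and 9.54, 8.67 and 9.73 in single-Stat5b. Its cyclins also overlapped between groups: Ccna2 differed by -0.14 and 0.16 (SE 0.33 each) and Ccnb2 by -0.12 and -0.21 (SE 0.32 each).

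Kinases and checkpoint genes of the spindle had intervals that held 0. Bub1b, a spindle checkpoint kinase, differed by -0.32 (SE 0.37) and -0.21 (SE 0.37), Aurka, the centrosomal Aurora kinase, by -0.29 (SE 0.30) and 0.17 (SE 0.30), and Aurkb, the Aurora kinase of the centromere, by 0.05 and -0.22 (SE 0.31 each). Cdca8, a partner of Aurkb, differed by -0.29 (SE 0.37) in the first comparison, and its means were equal in the second to within 0.01. Cdc20, an activator of the anaphase-promoting complex, read 9.96, 9.74 and 9.13 in single-Stat5a and 10.31, 9.54 and 10.15 in single-Stat5b, a difference of 0.39 (SE 0.28). Its other probe sets gave 0.14 and -0.36. Cdca3 gave -0.03 and -0.25 (SE 0.30 each).

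The median difference of the 18 mitosis genes was -0.17 in the first comparison and 0.00 in the second. Without the same arrays, the first was 0.07 and -0.52, and the second -0.09 and 0.15. Single genes ran from -0.34 to 0.05 and from -0.25 to 0.39. Above 0 lay 2 of 18 and 10 of 18, and with an array left out from 0 to 13 and from 4 to 14. Over all 39 genes, 6 lay above 0 in the first comparison. That count rests on single mice, since it was 30 of 39 without Stat5a-/- 1, 15 without Stat5ab+/null 3, 12 without Stat5a-/- 2, 2 without Stat5a-/- 3 and 2 without Stat5ab+/null 1, and it was 10 after quantile normalization.

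**Figure D2:**
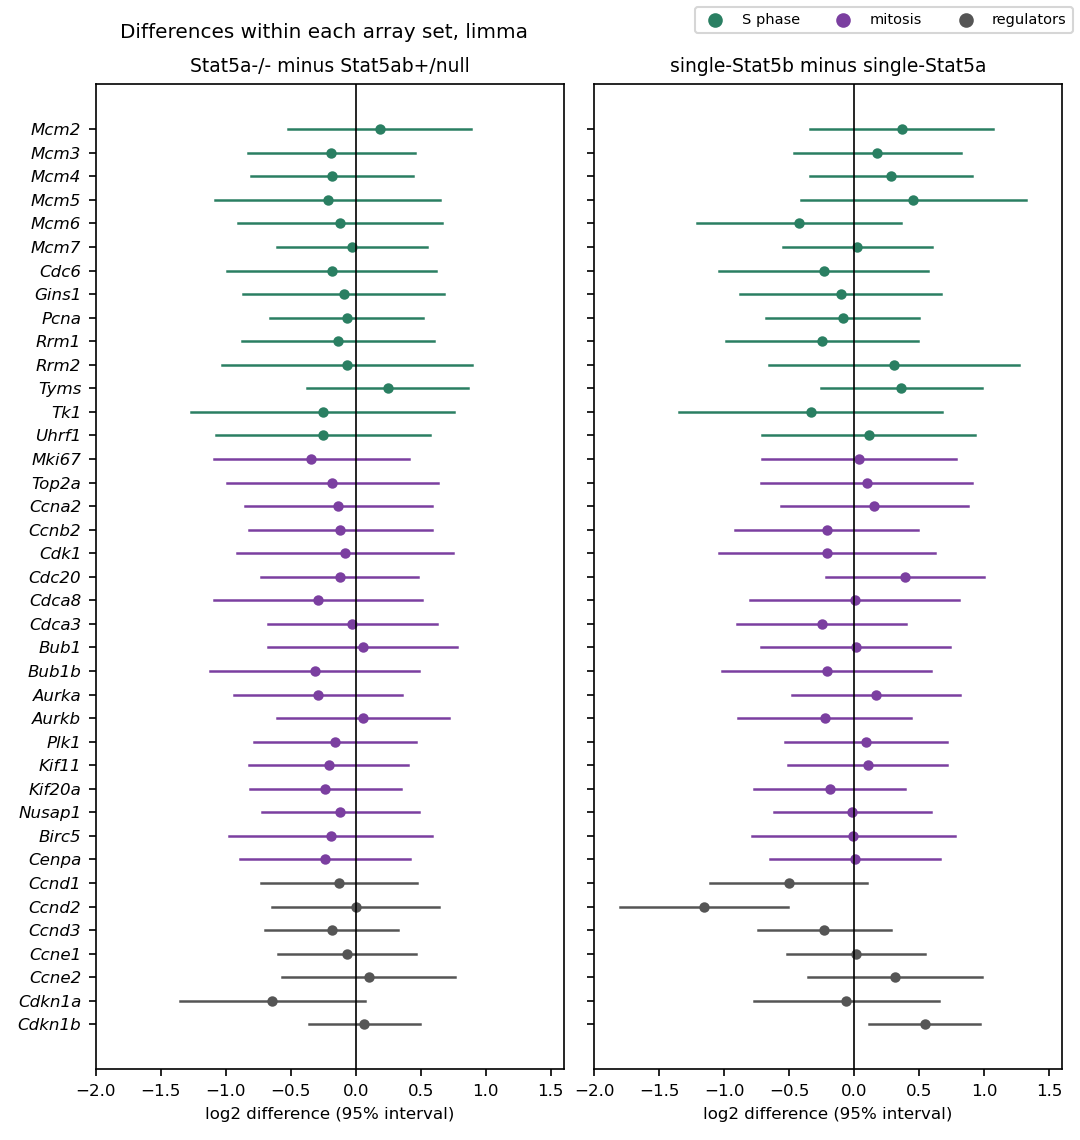
Fitted log2 difference (points) with its 95% interval from limma (lines) for each of the 39 genes in the comparison of Stat5a-/- with Stat5ab+/null (left) and of single-Stat5b with single-Stat5a (right), coloured by role. The interval holds 0 for 39 of 39 genes on the left and 37 of 39 on the right, where Ccnd2 and Cdkn1b stand apart.

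Among the chosen probe sets, the 3 largest differences between single-Stat5b and single-Stat5a were those of regulators of cycle entry. Other probe sets of the S phase genes Rrm2 and Mcm3 gave larger ones, 2.55 and -1.99. Ccnd2, cyclin D2, read 12.89, 13.05 and 12.97 in Stat5a-/-, 12.90, 12.91 and 13.10 in Stat5ab+/null, 12.78, 12.51 and 12.42 in single-Stat5a, and 10.78, 11.17 and 12.29 in single-Stat5b. All 3 single-Stat5b mice lay below all 3 single-Stat5a mice, but 1 of them by little. Non-overlap held for 1 of 39 genes here, against 10.9% of all genes. The difference was -1.15 (SE 0.30, 95% interval -1.80 to -0.51), with a limma adjusted p of 0.0738. It was called without single-Stat5b 3 (-1.59, limma adjusted p 0.000403), with array weights (-1.75) and with the mean of its probe sets (-0.88). The same gene differed by 0.00 between Stat5a-/- and Stat5ab+/null (95% interval -0.64 to 0.64), and the difference between the 2 comparisons was -1.15, with a limma adjusted p of 0.449.

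Ccnd1, cyclin D1, which mammary alveoli need to grow, read 12.77, 12.07 and 12.78 in single-Stat5a and 11.64, 11.72 and 12.74 in single-Stat5b. In the chosen probe set the third single-Stat5b mouse lay among the single-Stat5a mice, and the others of its genotype below them. The third was also the highest of its genotype in the chosen probe set of Ccnd2. The difference was -0.50 (SE 0.28, limma adjusted p 0.558), and without single-Stat5b 3 it was -0.86 with a limma adjusted p of 0.0392. In the first set Ccnd1 read 12.37, 12.63 and 12.60 in Stat5a-/- and 12.64, 12.71 and 12.65 in Stat5ab+/null, without overlap, as did 1 of 39 genes against 19.1% of all genes. Its second probe set read 11.97, 12.06 and 12.13 against 11.82, 11.78 and 11.82, without overlap in the other direction. In the other set that probe set read 10.20, 9.39 and 10.15 in single-Stat5a and 9.57, 10.14 and 9.27 in single-Stat5b. There the third single-Stat5b mouse was the lowest of its genotype. The difference was -0.25 (SE 0.24), and the remaining probe set of Ccnd1 gave 0.12 (SE 0.21).

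Cdkn1b, the inhibitor p27, read 11.14, 10.58 and 10.70 in single-Stat5a and 11.43, 11.56 and 11.06 in single-Stat5b. The groups overlapped, and the difference of 0.54 (SE 0.20, 95% interval 0.12 to 0.97) had a limma adjusted p of 0.259. Cdkn1a, the inhibitor p21, read 9.12, 9.07 and 8.97 in Stat5a-/- and 9.84, 10.13 and 9.11 in Stat5ab+/null, a difference of -0.64 (SE 0.33, 95% interval -1.36 to 0.07). Markers of other cells and RNA quality also varied in this comparison. Differences between single-Stat5b and single-Stat5a lay below 0 for 11 of 11 muscle genes (median -2.46), for 8 of 9 adipocyte genes (median -0.39) and for 6 of 7 endothelial genes (median -0.58), and above 0 for 13 of 14 luminal epithelium genes (median 0.32). None of these genes was called by limma. In the chosen probe sets the first single-Stat5b mouse was the lowest of its genotype for Ccnd2 and Ccnd1. In some other probe sets of both genes another mouse was the lowest, as in a second Ccnd2 probe set at 10.13, 9.45 and 10.49. The first mouse also had the largest actin and GAPDH 3′ minus 5′ differences of all arrays, 3.78 and 3.91. The part of these in the cyclin values was not tested. Ccnd3, cyclin D3, differed by -0.19 and -0.23 (SE 0.24 each) in the chosen probe set. Its other probe sets gave 0.12 and -0.46 in the first comparison. In the second they gave 0.46 and 0.45, opposite in sign to the chosen one. Ccne1, cyclin E1, differed by -0.07 and 0.02 (SE 0.24 each), and Ccne2, cyclin E2, by 0.10 and 0.31 (SE 0.31 each).

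The main pattern lay among mice within a genotype, in 3 of the 4 genotypes and with the widest spread in Stat5a-/-. There, the third mouse was the highest of 3 for 14 of 14 S phase genes and 18 of 18 mitosis genes, against 36.3% of all genes. The first mouse was the lowest for 14 of 14 and 16 of 18, against 35.3%. The median distance from lowest to highest mouse was 1.19 for S phase genes (2.28-fold) and 1.23 for mitosis genes (2.35-fold), against 0.28 for all genes and 0.19 for the regulators. In Stat5ab+/null, the first mouse was the lowest for 14 of 14 and 18 of 18, against 32.3% of all genes, and the third the highest for 13 of 14 and 16 of 18, against 38.2%. The median distance there was 0.80 and 0.67, against 0.31 for all genes and 0.36 for the regulators.

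In the other set the order was less uniform. The first single-Stat5a mouse was the highest for 12 of 14 S phase genes and 17 of 18 mitosis genes, against 27.6% of all genes. The second single-Stat5b mouse was the lowest for 9 of 14 and 13 of 18, but 51.4% of all genes were lowest there. Median distances were 0.55 and 0.63 in single-Stat5a against 0.39 for all genes, and 0.92 and 0.85 in single-Stat5b against 0.75. The regulators did not stay steadier there, at 0.555 in single-Stat5a and 1.08 in single-Stat5b.

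S phase and mitosis genes ranked the mice alike. The mean over S phase genes was 9.08, 9.48 and 10.31 in Stat5a-/- and 9.31, 9.84 and 10.03 in Stat5ab+/null, and that over mitosis genes 7.91, 8.26 and 9.15, and 8.28, 8.65 and 8.88. Within each of the 4 genotypes both means put the mice in the same order. The S phase mean minus the mitosis mean, whose absolute size has no meaning, was 1.17, 1.22 and 1.17 in Stat5a-/-, 1.03, 1.18 and 1.15 in Stat5ab+/null, 0.90, 1.03 and 1.00 in single-Stat5a, and 1.06, 1.02 and 1.04 in single-Stat5b. It varied by SDs of 0.02 to 0.08 within a genotype (n = 3), while the S phase mean itself varied by SDs of 0.24 to 0.63. In both sets the groups overlapped.

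Markers of other cells also moved among these mice. The mean of the B and plasma cell list (10 of 12 genes measured) was 6.84, 6.85 and 11.51 in Stat5a-/- and 7.81, 11.97 and 9.46 in Stat5ab+/null. The third Stat5a-/- mouse was thus the highest of its genotype for both B cell and cell cycle genes, but in Stat5ab+/null the mouse highest for B cell genes was the second and that highest for S phase genes the third. The T cell list (7 of 10 genes) was 6.58, 6.50 and 8.06, and 6.78, 9.23 and 6.83. The muscle list (11 of 12 genes) was 6.32, 6.23 and 9.70, and 6.38, 8.64 and 6.14. The luminal epithelium list (14 of 15 genes) stayed within 11.28 to 11.68 over these 6 mice and was lowest in the third Stat5a-/- mouse. The first and second Stat5a-/- mice, with B cell means of 6.84 and 6.85, had S phase means of 9.08 and 9.48 and mitosis means of 7.91 and 8.26. With the B cell and muscle means of each array as covariates, the median difference between Stat5a-/- and Stat5ab+/null was 0.01 for S phase genes and -0.03 for mitosis genes, in place of -0.13 and -0.17. Leaving out Stat5a-/- 1 alone moved these medians to 0.16 and 0.07. The part of other cells in the cell cycle values was not tested.

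**Figure D3:**
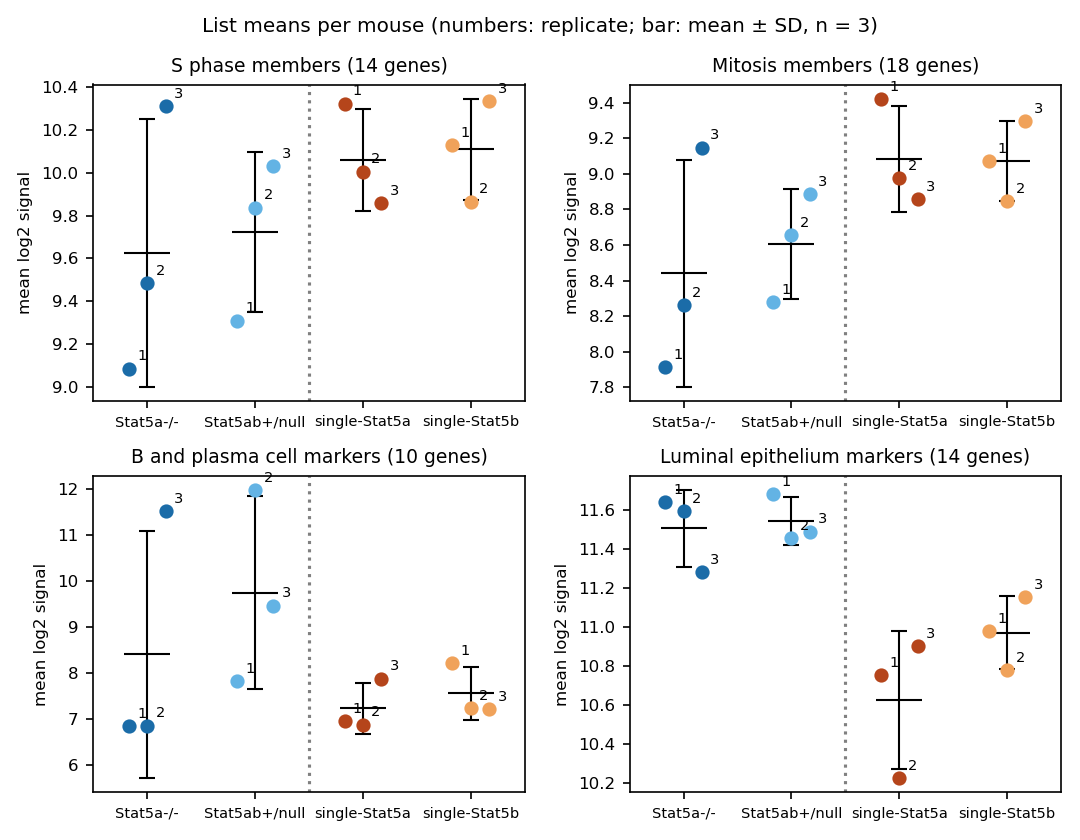
Mean log2 signal per mouse (points, numbered by replicate) of the S phase genes, the mitosis genes, B and plasma cell markers and luminal epithelium markers, by genotype, with the mean and SD of 3 mice (bars). S phase and mitosis means take the same order among the mice of Stat5a-/- and of Stat5ab+/null, and the B cell mean takes another order in Stat5ab+/null.

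Few other genes of the pathway passed the test. Of 45 other S phase genes measured (48 listed), 1 was lower and 0 higher in single-Stat5b than in single-Stat5a. Of 59 other mitosis genes (62 listed), 1 was lower and 0 higher, and of 33 other regulators (35 listed), 0 passed. The share of all genes was 1.37% lower and 0.817% higher. None of them passed in the first comparison or in the difference between comparisons. The third Stat5a-/- mouse was the highest of its genotype for 43 of the 45 and 59 of the 59.

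Pttg1 encodes securin, which holds separase inactive until anaphase. It read 13.11, 13.05 and 13.16 in single-Stat5a and 11.54, 11.49 and 11.99 in single-Stat5b, and 11.18, 11.37 and 11.68 in Stat5a-/- and 11.60, 11.75 and 11.52 in Stat5ab+/null. Within their array set, the single-Stat5a mice stood above the single-Stat5b mice, and levels were not compared between the sets. Pttg1 was 2.70-fold lower in single-Stat5b than in single-Stat5a (-1.43, SE 0.19, limma adjusted p 0.000707), and its other probe sets gave -1.76 and -1.14. The difference between the 2 comparisons was -1.22, with a limma adjusted p of 0.0591. Prim2, the large subunit of primase, read 9.24, 8.88 and 8.84 in single-Stat5a and 8.36, 8.25 and 8.11 in single-Stat5b, without overlap. It fell by 0.75 (SE 0.17, limma adjusted p 0.0402). Over the alternatives the difference stayed between -0.83 and -0.62, but the call was lost in most of them (17), where the limma adjusted p reached 0.327. Its other probe sets gave -0.60 and, below the filter, -0.05 (limma adjusted p 0.385 and 0.965).

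Probe sets of 1 gene did not always give 1 answer. The 39 genes had 93 probe sets, and 23 genes had more than 1 past the filter. These took opposite signs in 16 genes in the first comparison and 12 in the second. Fitted over all probe sets, 5 of the 93, from 4 genes, passed in single-Stat5b against single-Stat5a, against 2.7% of all probe sets. None of the 5 was the 1 chosen by the rule. For Ccnd2, 7 probe sets ran from -2.07 to 0.30, and those at -2.07 and -1.82 passed (limma adjusted p 0.000904 and 0.00603). For Rrm2, a probe set at 2.55 passed (limma adjusted p 0.00552), while the other two gave 0.31 and -0.37. For Mcm3, a helicase subunit, a probe set at -1.99 passed (limma adjusted p 0.000215). It read 10.40, 10.33 and 9.85 in single-Stat5a, 8.41, 8.28 and 7.90 in single-Stat5b, and 5.18 to 5.81 in the 6 arrays of the first set, while the chosen probe set of Mcm3 gave 0.18 (SE 0.30). For Nusap1, a spindle protein, a probe set below the filter gave -1.05 (limma adjusted p 0.00740), while the chosen one gave -0.01 (SE 0.28).

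**Figure D4:**
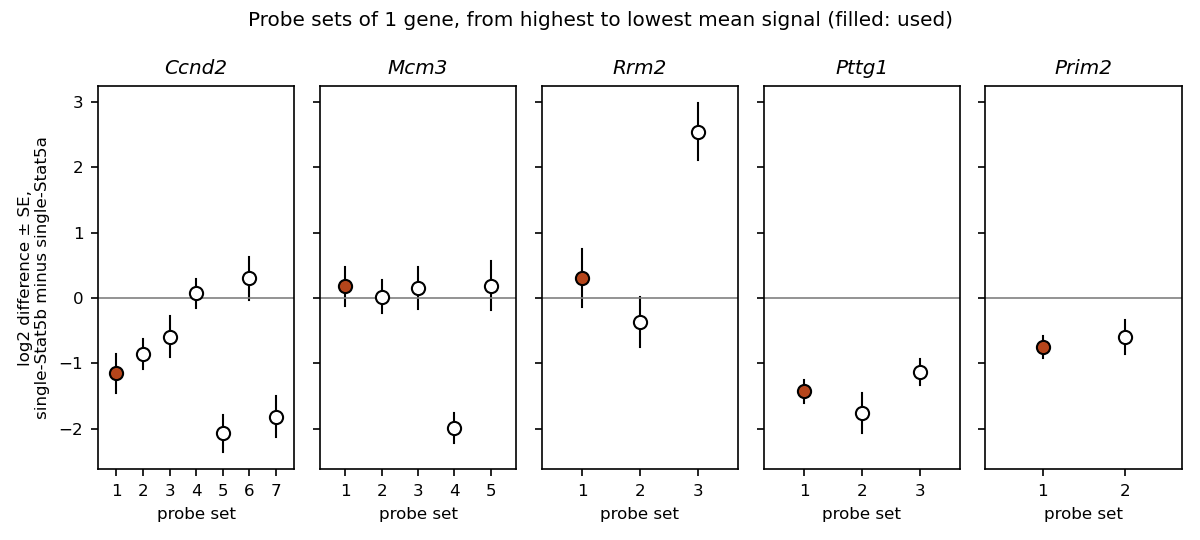
Log2 difference between single-Stat5b and single-Stat5a (points) with its SE (lines) for the probe sets past the filter of Ccnd2, Mcm3, Rrm2, Pttg1 and Prim2, ordered by mean signal, with the probe set used filled. Probe sets of Ccnd2 run from -2.07 to 0.30, and those of Rrm2 and Mcm3 lie on both sides of 0.

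Levels between the array sets follow the probe set. The chosen probe set of Rrm2 was higher by 3.28 in the single-Stat5a and single-Stat5b arrays than in the other set, and another probe set of Rrm2 lower by 1.03. Between the sets, probe sets took opposite signs in 14 of the 23 genes. No order of proliferation over all 4 genotypes was drawn from these values.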

How the data were processed

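Deposited values of 12 arrays were analysed. They are log2 signals of 45101 probe sets, summarized by the authors before they were deposited, and RMA and Partek appear, without settings, in the submitters' processing notes. The protocols in the labels give total RNA extracted with Trizol and biotinylated cRNA. Genotypes were taken from the labels.

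Probe sets were named from the platform's annotation: 34945 named 1 gene, 932 several and 9160 none. Those naming 1 gene and at or above the 30th percentile of mean signal (log2 6.04) were kept, with 1 probe set per gene. In limma 3.58.1 (R 4.3.3), 1 mean per genotype was fitted over the 12 arrays, with two-sided moderated tests adjusted over 14198 genes by Benjamini-Hochberg, and a call at an adjusted p under 0.05. Exact permutation tests of 3 arrays against 3 cannot go below p = 0.1. The code was tested on simulated data.

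Members, lists and alternatives were chosen with earlier results of these data known. Genes named were 16 standing members, members called in a test, the 4 S phase and 4 mitosis members with the largest difference in each comparison, the 3 members with the widest spread within a genotype, and pathway genes that were called. Ccnd1, Ccnd2, Rrm2, Mcm3 and Nusap1 are named for other probe sets after their values were seen.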

Additional observations from a re-analysis of the deposited data

How the results depend on the processing

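The members and alternatives were chosen with earlier results of these data known. The count of the 39 genes called stayed at 0 in Stat5a-/- minus Stat5ab+/null under every alternative run. In single-Stat5b minus single-Stat5a it was 1 with the mean of the probe sets of a gene (Ccnd2), 2 with array weights (Ccnd1 and Ccnd2) and 0 to 2 with each array left out in turn, the 2 being Ccnd1 and Ccnd2 without single-Stat5b 3. Over all genes, 1 was called in Stat5a-/- minus Stat5ab+/null, with 0 at a filter on the 50th percentile, 202 with array weights, 3 with B cell and muscle covariates, 2 with only the groups compared, 0 with the 4 arrays left out, and 0 to 5 with each array left out. In single-Stat5b minus single-Stat5a 310 were called, with 2228 under array weights, 205 under B cell and muscle covariates, 157 with only the groups compared, and 232 to 896 with each array left out, the highest without single-Stat5b 3. For the difference of the 2 comparisons 110 were called, with 1580 under array weights, 61 under B cell and muscle covariates, and 64 to 199 with each array left out. Array weights were estimated from the same 12 arrays, and the cause of the larger counts was not tested. No paired analysis was possible because the labels number no replicates, and numbers given in accession order do not tie mice of different genotypes.

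Of 1340 alternative values of 56 named differences, 102 lay on the other side of 0, and in 0 of these did the test pass in either fit. Pttg1 was called in single-Stat5b minus single-Stat5a under every alternative run. With 4 arrays left out together, 1 of each genotype (Stat5ab+/null 2, single-Stat5b 2, single-Stat5a 2, Stat5a-/- 3; single-Stat5b 2 was the highest of its genotype for neither B cell nor muscle signal), the log2 differences on the other side of 0 were Mcm2 -0.11, Ccne2 -0.34 and Aurkb -0.20 in Stat5a-/- minus Stat5ab+/null and Ccna2 -0.063, Ccnd3 0.11, Cdkn1a 0.55, Uhrf1 -0.0014 and Cdca3 0.011 in single-Stat5b minus single-Stat5a. With B cell and muscle means as covariates, the log2 differences on the other side of 0 were Top2a 0.17, Cdk1 0.16, Ccna2 0.12, Rrm2 0.29, Ccne1 0.027, Tk1 0.018 and Cdca3 0.0015 in Stat5a-/- minus Stat5ab+/null and Top2a -0.035, Ccnb2 0.046, Pcna 0.20, Ccnd3 0.054, Ccne1 -0.033, Cdkn1a 0.42 and Aurkb 0.013 in single-Stat5b minus single-Stat5a. With the actin control difference as a covariate, the log2 differences on the other side of 0 were Pcna 0.041, Ccne1 -0.037 and Cdca8 -0.042 in single-Stat5b minus single-Stat5a. With array weights, the log2 differences on the other side of 0 were Ccnd2 0.059 and Ccne2 -0.10 in Stat5a-/- minus Stat5ab+/null and Mki67 -0.19, Ccna2 -0.072, Cdkn1a 0.24, Uhrf1 -0.15 and Tyms -0.41 in single-Stat5b minus single-Stat5a. With the luminal epithelium mean as a covariate, the log2 differences on the other side of 0 were Ccnd2 0.016 in Stat5a-/- minus Stat5ab+/null and Cdkn1a 0.032 and Tk1 0.0057 in single-Stat5b minus single-Stat5a. With the mean of the probe sets of a gene, the log2 differences on the other side of 0 were Rrm2 0.0075, Ccnd1 0.071, Aurkb -0.063 and Prim2 0.023 in Stat5a-/- minus Stat5ab+/null and Ccnd3 0.23 and Cdca8 -0.10 in single-Stat5b minus single-Stat5a. With median centring, the log2 differences on the other side of 0 were Ccnd2 0.029 and Cdca3 0.00045 in Stat5a-/- minus Stat5ab+/null. With quantile normalization, the log2 differences on the other side of 0 were Cdk1 0.0052, Rrm2 0.011, Ccnd2 0.0087 and Cdca3 0.046 in Stat5a-/- minus Stat5ab+/null. Leaving out each array in turn, the log2 differences that crossed 0 in Stat5a-/- minus Stat5ab+/null ran over these ranges: Top2a -0.69 to 0.21, Cdk1 -0.53 to 0.23, Ccnb2 -0.48 to 0.16, Ccna2 -0.54 to 0.17, Mcm2 -0.17 to 0.41, Mcm5 -0.67 to 0.17, Pcna -0.24 to 0.07, Rrm2 -0.65 to 0.41 and Ccnd2 -0.042 to 0.064. The others in Stat5a-/- minus Stat5ab+/null were Ccne1 -0.22 to 0.075, Ccne2 -0.28 to 0.30, Cdkn1b -0.045 to 0.14, Tk1 -0.86 to 0.26, Uhrf1 -0.61 to 0.19, Cdca8 -0.75 to 0.059, Mcm6 -0.43 to 0.055, Cdc20 -0.38 to 0.0059, Cdca3 -0.30 to 0.15 and Aurkb -0.20 to 0.32. Leaving out each array in turn, the log2 differences that crossed 0 in single-Stat5b minus single-Stat5a ran over these ranges: Mki67 -0.21 to 0.33, Top2a -0.041 to 0.29, Cdk1 -0.42 to 0.12, Pcna -0.37 to 0.21, Ccnd3 -0.53 to 0.024 and Ccne1 -0.20 to 0.20. The others in single-Stat5b minus single-Stat5a were Cdkn1a -0.28 to 0.26, Uhrf1 -0.059 to 0.31, Bub1b -0.40 to 0.063, Cdca8 -0.21 to 0.25, Cdca3 -0.53 to 0.0083 and Aurkb -0.46 to 0.0042. The cause of these changes was not tested. Most of these differences were smaller than their standard errors, and 3 arrays per genotype limit what can be read from their signs.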
